A study of Mus musculus with 2 samples.

Results

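Cytosolic ribosomal proteins (RPs) are the protein parts of the ribosome, and their genes were examined here for open chromatin at their promoters in mouse embryonic stem cells (ESCs). The genes were taken by name from the protein-coding genes of GENCODE vM1: names that start with Rpl or Rps and a digit, and Rplp0, Rplp1, Rplp2 and Rpsa, leaving out the Rps6k kinases and the numbered pseudogenes. This gave 86 of 22380 protein-coding genes. They comprised 31 genes of the small subunit, 45 of the large subunit and 8 paralogs, which are further copies of a subunit gene (Rpl3l, Rpl7l1, Rpl10l, Rpl22l1, Rpl36al, Rpl39l, Rps4y2 and Rps27l). The other 2 matched by name only: Rps19bp1, which encodes a protein that binds Rps19, and Rpl32-ps, a pseudogene by its name that carries no number. The 76 genes of both subunits are called subunit genes below. The 86 genes lay on 19 chromosomes, with 14 of them on chromosome 7.

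Every ribosome needs 1 copy of nearly all of these proteins, so their genes are among the most strongly transcribed in growing cells and are expressed together. Their promoters are known to be short, to lie in CpG islands, mostly without a TATA box, and to start transcription at a C inside a run of pyrimidines. That run becomes the terminal oligopyrimidine (TOP) tract of the messenger RNA, through which growth signals adjust translation. Uhrf1 is a chromatin protein that binds hemimethylated DNA and is needed to maintain DNA methylation.

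Open chromatin was measured by ATAC-seq, a method that uses the Tn5 transposase to cut and tag accessible DNA. The samples were undifferentiated E14 mouse ESCs of genotype WT and undifferentiated E14 ESCs with a knockout of Uhrf1 (Uhrf1 KO), with 1 library each. Both were grown with serum and leukemia inhibitory factor on plates coated with gelatin or mouse embryonic fibroblasts (MEFs). With 1 library per genotype, genotype and library cannot be told apart, and no test between them was made. The data are the positions of called peaks on mm9, 71914 in WT and 61640 in Uhrf1 KO, a ratio of KO to WT of 0.857. The number of reads behind a peak is unknown, so a start without a peak is one where none was listed, which does not show that the chromatin there was closed. Intervals below are 95% intervals (exact binomial for shares and ratios, exact Poisson for peak numbers) and cover counting error only.

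As a check of the cell type, peaks lay at the starts of all 8 ESC markers in WT (Pou5f1, Sox2, Nanog, Klf4, Esrrb, Zfp42, Tdgf1 and Dppa4) and of 7 of 8 in Uhrf1 KO, where Dppa4 had none. Of 8 fibroblast markers, 5 had a peak in WT and 4 in Uhrf1 KO. Col1a1 had 4 WT and 2 KO peaks, Col1a2 had 2 and 3, and Prrx1 had 3 and 2. Thy1 had 1 and 1, Dcn had 1 and 0, and Twist2, Postn and Lum had 0 in both libraries. Over all protein-coding genes, 63.6% had a peak in WT and 58.7% in Uhrf1 KO. The part that feeder cells took in the RP peaks was not tested.

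To show what these promoters look like, the windows of 7 subunit genes with the core of a CG-rich palindrome are printed first, because of the 6 motifs searched it had the largest ratio of its share at RP promoters to its share at all promoters. The core was TCTCGCGA, read on both strands (its complement is TCGCGAGA). Each line holds the 60 bases before the annotated start and the 20 bases from the start on, 5′ to 3′ on the strand of the gene, read from the NCBIM37 (mm9) genome. Capitals mark the match. Each was chosen for a match inside this window. In Rpl26, Rps6 and Rps28 matches on both strands overlap and form the full palindrome.
Rpl7a, chr2:26766224-26766303, plus strand: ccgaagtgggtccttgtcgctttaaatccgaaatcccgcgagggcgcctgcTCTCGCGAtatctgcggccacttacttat
Rpl23a, chr11:77997067-77997146, minus strand: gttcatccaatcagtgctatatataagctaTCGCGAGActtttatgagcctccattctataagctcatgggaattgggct
Rpl26, chr11:68715025-68715104, plus strand: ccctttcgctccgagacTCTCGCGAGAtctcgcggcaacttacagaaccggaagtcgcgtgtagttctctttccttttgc
Rps3a, chr3:85946605-85946684, minus strand: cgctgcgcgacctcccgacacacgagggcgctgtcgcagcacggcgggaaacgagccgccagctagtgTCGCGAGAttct
Rps6, chr4:86503297-86503376, minus strand: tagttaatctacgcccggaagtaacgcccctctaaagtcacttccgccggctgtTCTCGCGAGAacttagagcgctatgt
Rps15a, chr7:125259681-125259760, minus strand: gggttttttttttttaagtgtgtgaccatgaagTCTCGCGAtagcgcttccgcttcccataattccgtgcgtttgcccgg
Rps28, chr17:33961488-33961567, minus strand: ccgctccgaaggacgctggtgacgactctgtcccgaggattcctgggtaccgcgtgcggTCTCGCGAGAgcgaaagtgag

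The second set shows the ETS motif CCGGAAG (complement CTTCCGG), the recognition sequence of ETS family factors, which was found in the largest number of RP promoters after the Sp1 motif. The 5 examples are cut in the same way, and capitals again mark the match.
Rpl8, chr15:76734441-76734520, plus strand: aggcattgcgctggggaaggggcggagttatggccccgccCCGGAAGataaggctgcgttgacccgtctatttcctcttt
Rpl11, chr4:135609289-135609368, minus strand: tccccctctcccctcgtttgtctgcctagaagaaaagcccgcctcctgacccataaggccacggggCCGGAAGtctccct
Rpl34, chr3:130433236-130433315, minus strand: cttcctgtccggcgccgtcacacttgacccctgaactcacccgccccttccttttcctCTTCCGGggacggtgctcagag
Rps7, chr12:29320799-29320878, minus strand: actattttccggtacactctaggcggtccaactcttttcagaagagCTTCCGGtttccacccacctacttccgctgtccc
Rps18, chr17:34092643-34092722, minus strand: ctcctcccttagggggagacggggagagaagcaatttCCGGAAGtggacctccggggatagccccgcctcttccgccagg

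A gene was counted as having a peak when the middle of a peak lay within 2 kb of any of its transcript starts. In WT, 75 of the 86 RP genes had a peak (87.2%, 78.3 to 93.4), against 63.6% of all protein-coding genes. In Uhrf1 KO, 77 had a peak (89.5%, 81.1 to 95.1), against 58.7% of all protein-coding genes. A peak in both lists was found for 71 genes (82.6%), against 57.0%. RP promoters were moderately rich in GC, with a median of 57.0% in the 1 kb centred on the start and 55.1% over all genes. Among the 6833 protein-coding genes with at least 60% GC there, 96.1% had a WT peak and 89.3% a KO peak. Among the 4465 genes with 55% to 60% GC, a band chosen after the RP values were seen, 85.0% had a WT peak and 77.8% a KO peak, against 38 of the 41 subunit genes of that band (92.7%, 80.1 to 98.5) in each list. The value of this band in WT lies inside the interval of the 86 RP genes, and that in Uhrf1 KO lies below it. The part of GC content in these shares was not tested.

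**Figure D1:**
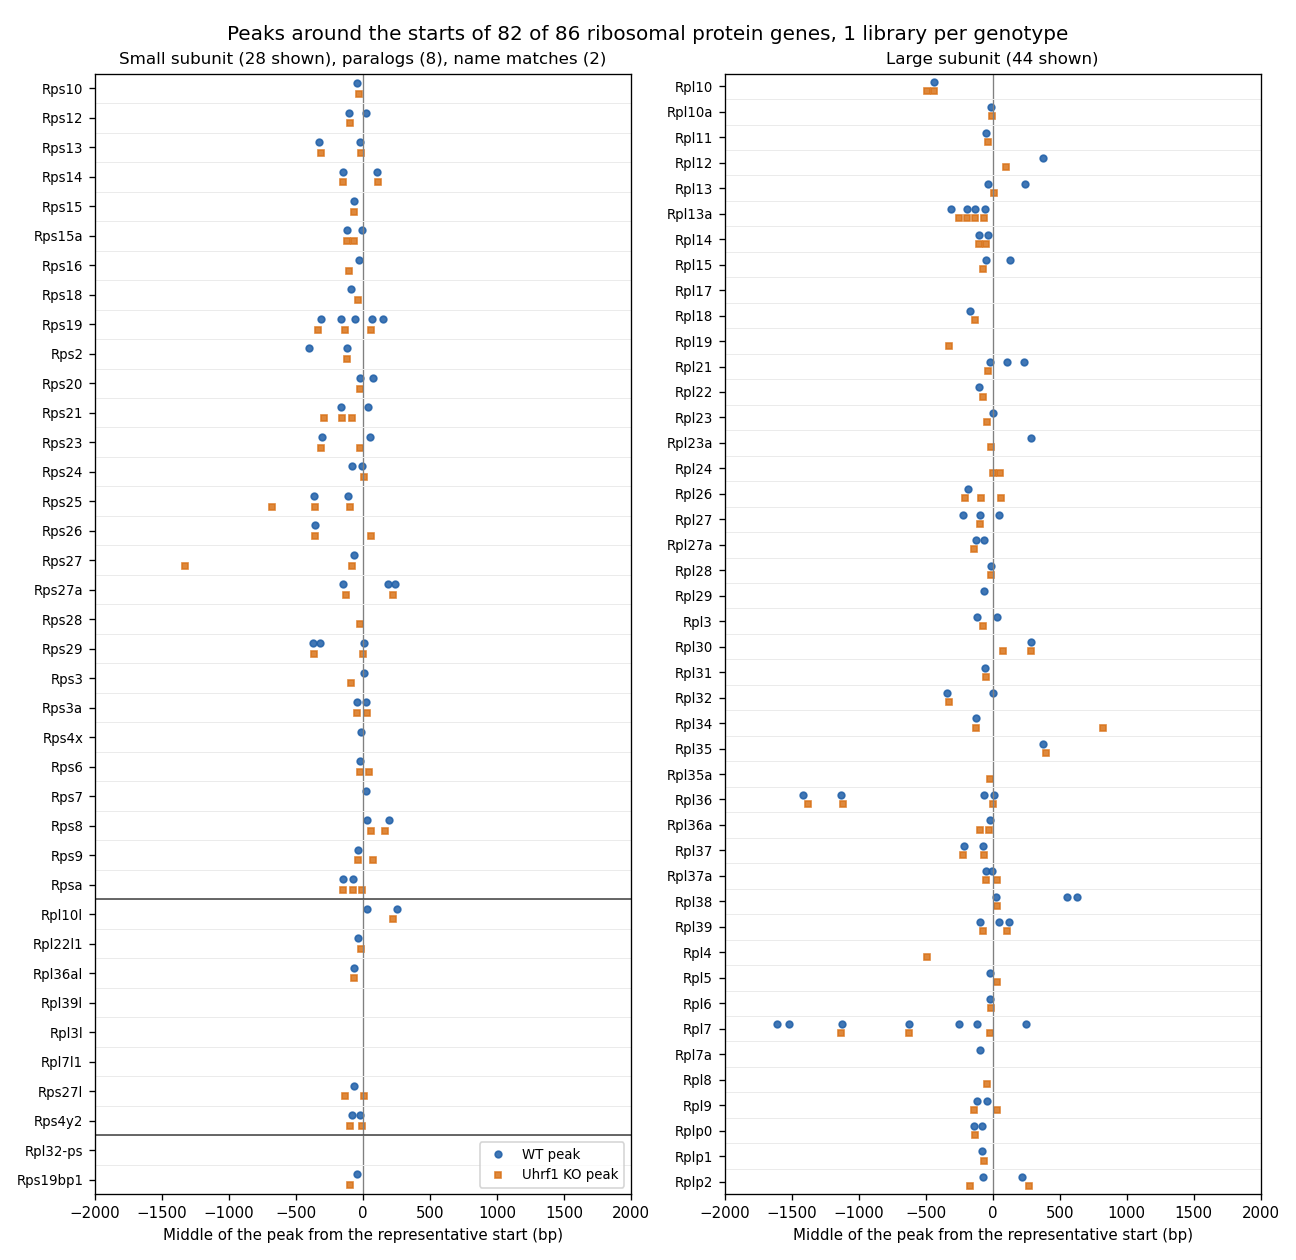
Each row is 1 of 82 RP genes, and the x axis gives the distance in bp from its representative transcript start to the middle of a peak, negative before the start. Blue circles are WT peaks and orange squares Uhrf1 KO peaks of 1 library each, and peaks beyond 2000 bp of this start, which belong to other transcript starts, are not drawn. Most genes show 1 or 2 peaks of both colours just before the start, and Rpl17, Rpl3l, Rpl39l, Rpl7l1 and Rpl32-ps show none.

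In the small subunit, 29 of 31 genes had a peak in each list and 27 had one in both. The genes held 58 WT peaks (44.0 to 75.0) and 56 KO peaks (42.3 to 72.7). Rpsa, which is also known as the laminin receptor, had 2 WT and 3 KO peaks. Rps6, the target of the S6 kinases, had 1 and 2. Rps14, known as a locus of emetine resistance in cultured cells, had 2 and 2. Rps19, the gene most often mutated in Diamond-Blackfan anaemia, had 6 and 3, and Rps27a, which is made as a fusion with ubiquitin, had 3 and 2. All of these genes except Rps19 differed by at most 1 peak between the libraries.

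In the large subunit, 40 of 45 genes had a WT peak and 42 a KO peak, with 77 WT peaks (60.8 to 96.2) and 69 KO peaks (53.7 to 87.3). The stalk proteins that recruit elongation factors had 2 WT peaks and 1 KO peak at Rplp0, 1 of each at Rplp1 and 2 of each at Rplp2. Rpl5 and Rpl11, which bind Mdm2 when ribosome assembly fails, had 1 peak in each list. Rpl38, whose loss causes the skeletal defects of tail-short mice, had 3 WT peaks and 1 KO peak. Its peak at 28 bp (WT) and 35 bp (KO) after the start was shared, and its other WT peaks lay in an intron at 552 and 627 bp. The pattern at the stalk genes and at Rpl5 and Rpl11 was thus nearly the same in both libraries.

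The paralogs fell into those with peaks in both lists and those with none. Peaks in both lists were present at Rpl10l (2 in WT, 1 in KO), Rpl22l1 (1 and 1), Rpl36al (1 and 1), Rps4y2 (2 and 2) and Rps27l (1 and 2). Rpl3l, a paralog of heart and skeletal muscle, Rpl39l, known from testis, and Rpl7l1 had 0 peaks in either. Their parent genes all had peaks: Rpl3 had 2 and 1, Rpl39 had 3 and 2, and Rpl7 had 7 and 3. The peaks closest to the starts of these 3 paralogs lay 3396 bp (WT) and 7836 bp (KO) before Rpl3l, 22620 and 22623 bp after Rpl39l, and 9848 and 10168 bp after Rpl7l1. Each of those peaks was within 200 bp of the start of another protein-coding gene, such as Ndufb10, Rps2 or Atf7ip2. The counterparts of the paralogs with peaks, Rpl10, Rpl22, Rpl36a, Rps27 and Rps4x, had 1 WT peak each, with 2, 1, 2, 2 and 0 KO peaks in that order.

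Rpl17 was the 1 subunit gene without a peak in either list. The closest peak lay 4429 bp (WT) and 4430 bp (KO) after its annotated start and within 1 kb of the start of another gene, BC031181. That peak was among the first of its chromosome in both lists by the number in the peak's name, at 0.583% and 0.485% of the list. What this number measures is not given in the sources used here, and lower numbers are only called earlier.

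**Figure D2:**
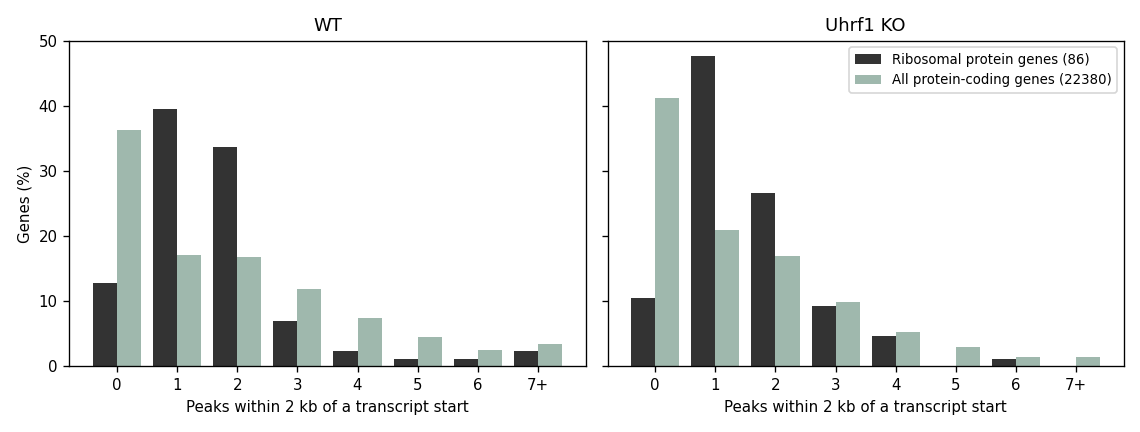
Bars give the percent of genes (y axis) by the number of peaks within 2 kb of a transcript start (x axis, with 7 or more pooled) in 1 WT and 1 Uhrf1 KO library, dark for the RP genes and light for all protein-coding genes. The RP genes sit mainly at 1 and 2 peaks, with 39.5% at 1 peak in WT and 47.7% in Uhrf1 KO, whereas 36.4% and 41.3% of all protein-coding genes had none.

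Where RP genes had peaks, they mostly had few of them. In WT, 34 of 86 genes had 1 peak and 29 had 2, and in Uhrf1 KO 41 had 1 and 23 had 2. The mean was 1.66 peaks per gene in WT and 1.55 in Uhrf1 KO, against 1.83 and 1.40 over all protein-coding genes and 3.28 and 2.41 over those with at least 60% GC. The most peaks were listed at Rpl13a (7 in WT, 6 in KO), Rpl7 (7 and 3), Rps19 (6 and 3), Rps18 (5 and 4) and Rpl36 (4 and 3), and among KO peaks also at Rpl18 and Rpl24 (2 in WT and 4 in KO at each). Several of these numbers came from alternative transcript starts close to another gene. At Rpl13a, which hosts 4 small nucleolar RNA (snoRNA) genes, 4 peaks in each list lay within 312 bp before the representative start, and the others lay 5862 to 7765 bp before it, near the start of Flt3l. At Rps18 only 1 peak per list belonged to the representative start, and the others lay 3960 to 4584 bp after it, within 355 bp of the start of B3galt4. In all, 13 of 143 WT peaks and 12 of 133 KO peaks lay more than 2 kb from the representative start of their gene, and 10 and 9 of these were within 2 kb of the start of another protein-coding gene.

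Peaks at RP genes mostly lay close to the start. The median distance of the closest peak was 30.5 bp before the representative start in WT (offset -30.5) and 38.0 bp before it in Uhrf1 KO (offset -38.0), against offsets of -19.0 and -26.0 over all protein-coding genes. The closest peak lay within 250 bp for 91.9% of the 74 genes with a WT peak there and for 93.5% of 77 in Uhrf1 KO, against 87.2% and 84.4% of all protein-coding genes with a peak there and 94.0% and 89.2% of those rich in GC. By the annotation, 58.0% of WT and 61.7% of KO peaks lay upstream of the gene, 23.1% and 20.3% in an untranslated exon, 11.9% and 9.02% in an intron, and 1 peak per list in a coding exon. These places are given for RP genes alone and were not counted over all genes.

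The stretch from 200 bp before to 100 bp after the start held 83 of 122 WT peaks of the subunit genes (68.0%, 59.0 to 76.2) and 82 of 113 KO peaks (72.6%, 63.4 to 80.5). Over all protein-coding genes it held 43.1% and 48.6%, and over those rich in GC 41.5% and 47.5%. The stretch from 100 to 1000 bp after the start held 18 WT peaks of the subunit genes (14.8%, 8.98 to 22.3) and 9 KO peaks (7.96%, 3.71 to 14.6), against 30.9% and 24.6% over all protein-coding genes. These stretches were chosen after the profile was seen. The RP intervals do not reach the values of all genes in either library.

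**Figure D3:**
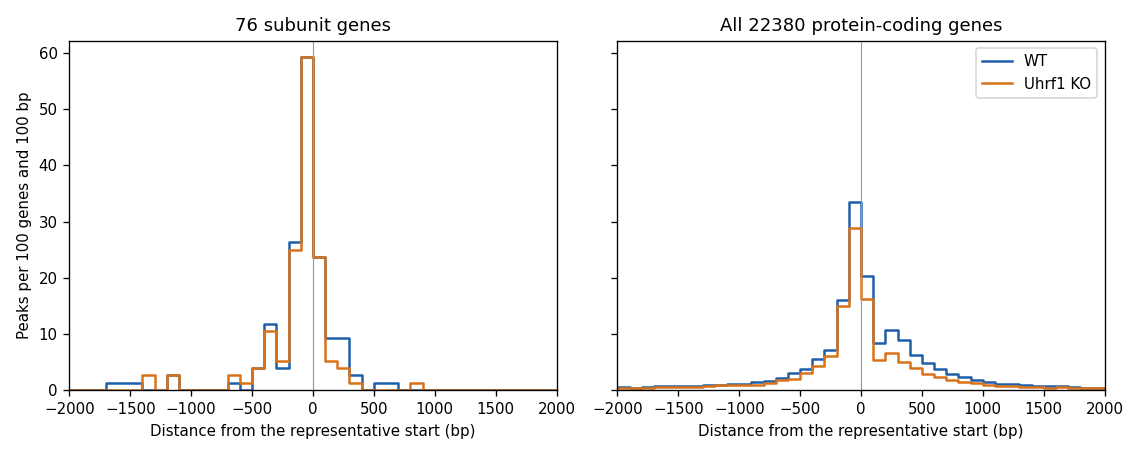
The y axis gives peaks per 100 genes in bins of 100 bp, and the x axis the distance from the representative start in bp, for the 76 subunit genes and for all protein-coding genes, with WT in blue and Uhrf1 KO in orange (1 library each). The bin just before the start held 59.2 peaks per 100 subunit genes in both libraries, against 33.4 (WT) and 28.9 (Uhrf1 KO) over all protein-coding genes. Over the genes rich in GC, which are not drawn, that bin held 57.7 (WT) and 47.5 (Uhrf1 KO), so the WT values are close. The shoulder after the start seen over all genes is low at the subunit genes.

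Between the libraries, the 86 genes held 143 WT peaks (121 to 168) and 133 KO peaks (111 to 158), a ratio of KO to WT of 0.930 (0.729 to 1.19). The ratio was 0.966 (0.657 to 1.42) in the small subunit and 0.896 (0.638 to 1.26) in the large subunit. Over the starts of all protein-coding genes it was 0.762 (0.750 to 0.774), and over those rich in GC 0.732 (0.717 to 0.748). Both values lie inside the RP interval. That interval treats peaks as independent, although 122 of the 143 WT peaks had a KO partner and several could lie at the same gene. It therefore cannot decide whether the ratios differ. With the WT list shortened to the length of the KO list by name number, the RP ratio was 0.985 and that of all protein-coding genes 0.842. In the GC band of 55% to 60% the ratio was 0.877 (0.628 to 1.22) for the subunit genes and 0.789 (0.765 to 0.814) for all genes.

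**Figure D4:**
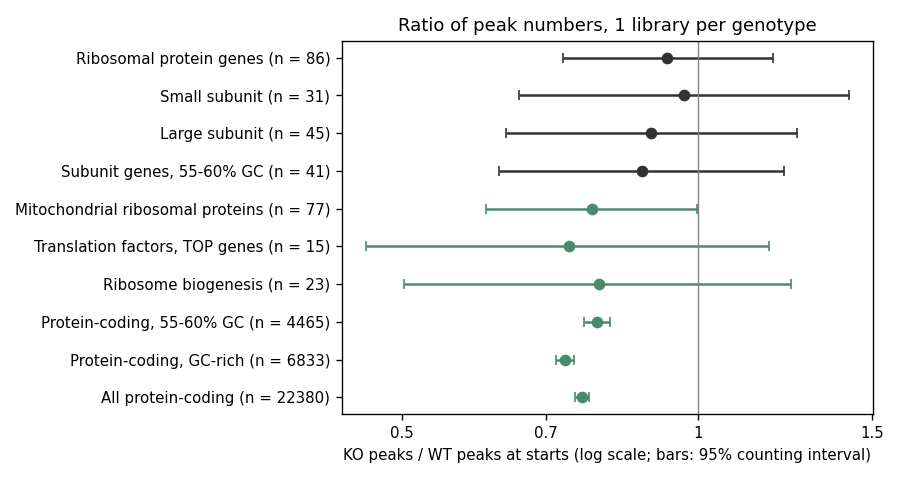
Points give the number of KO peaks divided by that of WT peaks at the starts of each gene set (x axis, log scale), and bars the 95% exact interval for counting error, with 1 library per genotype. The RP genes and both subunits lie between 0.896 and 0.966 with intervals that include 1, and the protein-coding sets lie between 0.732 and 0.789.

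Gene by gene, 27 RP genes had fewer KO than WT peaks (31.4%, against 33.2% of all protein-coding genes) and 22 had more (25.6%, against 13.0%), while 37 had equal numbers. The share with fewer was near that of all genes. The share with more was 27.6% in the 76 subunit genes and 17.5% in the protein-coding genes rich in GC. In the band of 55% to 60% GC, which holds 41 of the subunit genes, it was 19.5% of these and 17.2% of all genes. The part of GC content in this share was not tested. No peak in either list was found for 34.6% of all protein-coding genes. The peak numbers of 78 of 86 RP genes (90.7%) differed by at most 1, as did those of 81.3% of all protein-coding genes. The largest excess in WT was at Rpl7, with 7 WT peaks from 1608 bp before to 246 bp after the start and 3 KO peaks at 1130, 626 and 23 bp before it. Rps19 followed, where 5 WT peaks covered the stretch from 315 bp before to 153 bp after the start and KO peaks lay at 335 and 134 bp before and 57 bp after it. Rpl21, Rpl27 and Rpl38 each had 3 WT peaks and 1 KO peak. The largest excess in Uhrf1 KO was at Rpl18, Rpl24 and Rpl26, followed by genes with 1 more KO than WT peak, such as Rpl10 (1 and 2) and Rpl19 (0 and 1). At Rpl18 the 3 KO peaks without a WT partner lay 5478 to 5707 bp after the representative start, near the start of Fam83e. Rpl24 had KO peaks 1 and 56 bp after the start where WT had none, and its shared peaks lay 7379 to 8351 bp after the start in an intron. Rpl26, with the palindrome in the sequence above, had 1 WT peak at 187 bp before the start and KO peaks at 208 and 87 bp before and 61 bp after it. Rpl13 lies on chromosome 8, where the ratio over protein-coding starts was lower (0.660, 0.617 to 0.706), and had 2 WT peaks and 1 KO peak.

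A peak was said to have a partner when a peak of the other list overlapped it or lay at most 100 bp away. Of the WT peaks, 21 (14.7%, 9.33 to 21.6) had no KO partner, against 25.6% at all protein-coding starts. Of the KO peaks, 20 (15.0%, 9.43 to 22.3) had no WT partner, against 8.90%. Both background values lie outside these intervals. In the band of 55% to 60% GC, 17.3% of WT peaks of the subunit genes (9.78 to 27.3) had no partner, against 23.8% for all genes of the band. For KO peaks the shares were 14.1% (6.97 to 24.4) and 8.20%. The values of the band lie inside these intervals, which are wider because they rest on only 81 WT and 71 KO peaks. The part of GC content in these shares of peaks was not tested. With only the lower 50% of name numbers kept, 23.7% of WT peaks at RP genes had no partner, against 26.6% at all protein-coding starts. For KO peaks in that setting the shares were 14.6% and 7.79%. Among the 69 RP genes without another protein-coding start within 2 kb, 9.71% of WT peaks (4.75 to 17.1) and 11.5% of KO peaks (5.86 to 19.6) had no partner. The KO interval includes the 8.90% of all protein-coding starts, and the WT interval lies below their 25.6%. That background was not restricted to genes without such a neighbour. In the small subunit the shares were 8.62% (2.86 to 19.0) and 10.7% (4.03 to 21.9), and in the large subunit 20.8% (12.4 to 31.5) and 20.3% (11.6 to 31.7). Peaks without a partner came late in the lists: their median name rank was 69.9% in WT and 72.9% in Uhrf1 KO, against 32.2% and 35.2% for partnered peaks. The earliest peak of an RP gene with a peak ranked at a median of 28.1% (WT) and 31.5% (KO), against 19.2% and 23.3% over all protein-coding genes. This is the lowest rank among all peaks of a gene, so it depends on the number of peaks per gene, which was not matched. What part the rank had in the shares was not tested. The closest WT and KO peaks of a gene were a median of 22.0 bp apart (quartiles 6.25 and 79.5, 70 genes), against 35.0 bp over all protein-coding genes. Only 1 WT peak of an RP gene was listed at the identical position in the KO list.

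The earliest RP peaks of the WT list were at Rpl37 (0.514% of its chromosome, at 212 bp before the start), Rpl15 (1.08%, 53 bp before), Rpl35 (2.03%, 379 bp after) and Rpl24 (2.79%, 7437 bp after). In the KO list the earliest peaks of the same genes ranked at 2.65%, 2.45%, 2.99% and 2.13%. That of Rpl24 lay 7379 bp after the representative start, so in neither list is it a peak at this start. The KO peaks of Rpl24 at 1 and 56 bp after the start ranked at 36.1% and 29.8%. These 4 genes were named after their values were seen.

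A peak in the WT list alone was found at 4 RP genes (4.65%, against 6.64% of all protein-coding genes): Rpl29 (chromosome 9, 106331785 to 106333899, plus strand), Rpl7a (chromosome 2, 26766284 to 26768838, plus), Rps4x (chromosome X, 99380280 to 99384733, minus) and Rps7 (chromosome 12, 29315712 to 29320818, minus). Each had 1 WT peak, at 64, 91 and 11 bp before the start of Rpl29, Rpl7a and Rps4x and 20 bp after that of Rps7, with name ranks of 29.6%, 33.9%, 66.0% and 44.9%. Rps4x is X-linked, and its product and that of Rps7 belong to the small subunit. A peak in the KO list alone was found at 6 genes (6.98%, against 1.73%). They included Rpl19 (chromosome 11, 97888024 to 97891806, plus), Rpl35a (chromosome 16, 33056539 to 33060275, plus), Rpl4 (chromosome 9, 64021194 to 64026369, plus), Rpl8 (chromosome 15, 76734501 to 76736748, plus) and Rps28 (chromosome 17, 33955972 to 33961507, minus). Each of these 5 had 1 KO peak before the start, at 323 bp in Rpl19, 23 bp in Rpl35a, 486 bp in Rpl4, 45 bp in Rpl8 and 22 bp in Rps28. Their name ranks were 89.3%, 58.8%, 84.6%, 83.0% and 93.8%, so 4 of the 5 came after the first 80% of their chromosome's list. The KO peaks of Rpl4 and Rps28 also lay 2 and 7 bp from the starts of the neighbouring genes Zwilch and Ndufa7, and the WT peak of Rpl7a 4 bp from that of Med22. With single peaks of unknown height, these genes cannot be said to differ between the genotypes.

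Of the genes with a peak in only 1 list, 3 peaks are printed to show the DNA that was listed in one library and not in the other. Each is the whole 101 bp peak on the strand of the gene in NCBIM37, with ETS and Sp1 (GGGCGG or CCGCCC) matches in capitals, which run together where they overlap.
Rpl29, WT peak, chr9:106331671-106331771, plus strand: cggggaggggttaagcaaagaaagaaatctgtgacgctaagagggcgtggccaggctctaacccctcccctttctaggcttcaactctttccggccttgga
Rpl7a, WT peak, chr2:26766143-26766243, plus strand: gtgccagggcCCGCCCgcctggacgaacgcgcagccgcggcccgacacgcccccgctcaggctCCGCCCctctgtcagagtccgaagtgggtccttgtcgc
Rpl8, KO peak, chr15:76734406-76734506, plus strand: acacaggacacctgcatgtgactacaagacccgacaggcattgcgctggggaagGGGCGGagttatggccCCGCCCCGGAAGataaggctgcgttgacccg

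Promoter motifs were searched on both strands from 250 bases before to 50 bases after the representative start. The palindrome core TCTCGCGA was found at 12 of 76 subunit genes (15.8%, 8.43 to 26.0), at 1.38% of all protein-coding promoters, at 2.62% of those rich in GC and at 1 of 77 mitochondrial RP genes (1.30%). Of the 23 ribosome biogenesis genes, 2 held it (8.70%, 1.07 to 28.0), an interval that includes the share of the subunit genes. It was present in 7 small-subunit genes (22.6%) and 5 large-subunit genes (11.1%), among them Rpl7a, Rpl17, Rpl23a, Rpl26, Rpl27a, Rps3a, Rps6, Rps15a, Rps19 and Rps28. The ETS motif CCGGAAG was found at 25 subunit genes (32.9%, 22.5 to 44.6), against 11.0% of all promoters and 14.3% of those rich in GC, and at 36.4% of the mitochondrial RP genes. The YY1 motif AANATGGC was found at 13.2% (6.49 to 22.9), against 6.67% of all promoters, an interval that just includes the background, and at 24.7% of the mitochondrial RP genes. The Sp1 motif GGGCGG was found at 52.6% (40.8 to 64.2), against 44.9% of all promoters and 82.5% of those rich in GC. The Nrf1 motif GCGCATGC (3.95% against 3.35%) and the TATA motif TATAAA (11.8% against 13.3%) were found about as often as in all promoters. Among those rich in GC the shares were 4.74% and 3.48%, and the latter lies below the TATA interval of the subunit genes (5.56 to 21.3). The median centre of the TATA matches at subunit genes lay 3.00 bp after the start. None of these 6 motifs was in the window of 17 subunit genes (22.4%). A C followed by at least 4 pyrimidines within 5 bases of the annotated start, as in a TOP tract, was found at 18 subunit genes (23.7%, 14.7 to 34.8) against 17.8% of all genes, with annotated starts that need not be the base where transcription begins. A match describes these letters in these windows and is not evidence of binding.

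**Figure D5:**
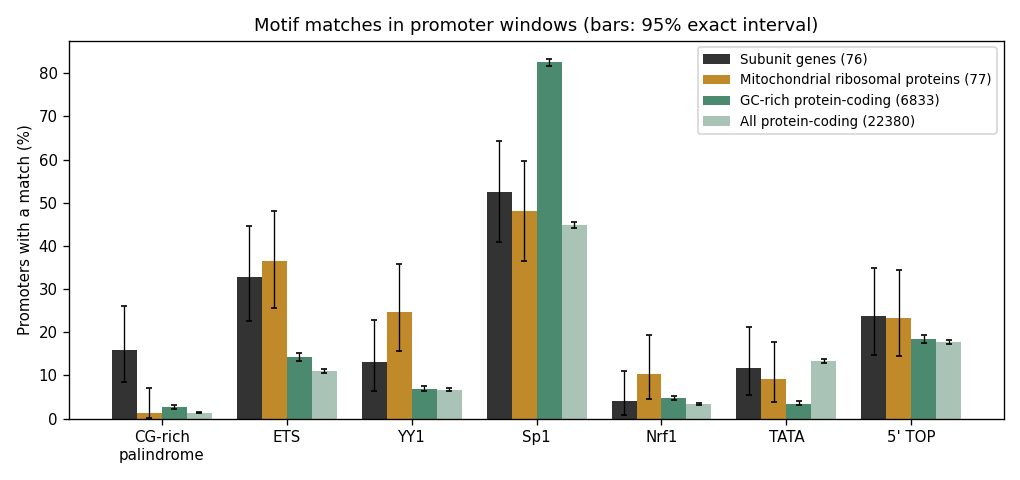
Bars give the percent of promoters (y axis) with at least 1 match to each motif (x axis), with 95% exact binomial intervals, in the subunit genes, the mitochondrial RP genes, the GC-rich protein-coding genes and all protein-coding genes. The palindrome core stands at 15.8% in the subunit genes and at no more than 2.62% in the other sets drawn, whereas ETS matches are frequent at cytosolic (32.9%) and mitochondrial (36.4%) RP genes alike.

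Subunit genes with and without a motif differed by under 1 peak per gene on average for each of the 6 motifs in each list. The 12 genes with the palindrome core, 7 of which are shown above, had a peak in 9 (WT) and 10 (KO) cases, with a mean of 1.42 peaks per gene in each list, and the 64 without it had means of 1.84 and 1.69. Rps28 was among the genes with a KO peak alone, Rpl7a among those with a WT peak alone, and Rpl17 had none. The 25 genes with the ETS motif had 1.72 WT and 1.76 KO peaks per gene, and the 51 without it 1.80 and 1.59. The 10 genes with the YY1 motif had 17 WT and 25 KO peaks (1.70 and 2.50 per gene), with more KO peaks at 7 genes and fewer at 1. The 66 without it had 118 and 100 (1.79 and 1.52 per gene), with more KO peaks at 14 and fewer at 25. At Rpl13a, Rpl18 and Rpl24, which have the motif, both counts include peaks more than 2 kb from the representative start around which it was searched. This split was 1 of 9 examined, and the difference was not tested. Of 29 ETS matches, 11 lay inside a WT peak and 15 inside a KO peak, and of 17 palindrome core matches 4 and 7. The 18 genes with a TOP tract had 31 peaks in each list.

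RP genes often host snoRNA genes in their introns, and 30 of 86 held 58 annotated snoRNA genes between their ends. These hosts had 1.73 WT and 1.47 KO peaks per gene, and the 46 subunit genes without a snoRNA 1.80 and 1.76. The start of another protein-coding gene lay within 2 kb of any transcript start of 17 RP genes. These had 2.35 WT and 2.18 KO peaks per gene, against 1.49 and 1.39 for the 69 others. The ratio of KO to WT was alike with (0.925, 0.575 to 1.48) and without (0.932, 0.698 to 1.24) such a neighbour.

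RP genes have many processed pseudogenes, which are copies of the messenger RNA without the promoter. Of 162 numbered RP pseudogenes in the annotation, 7 had a WT peak (4.32%, 1.75 to 8.70) and 9 a KO peak (5.56%, 2.57 to 10.3) within 2 kb of the start, and 2 had both, among them Rpl15-ps1. In none was the closest peak within 250 bp of the start. Reads from copies with the same sequence can be placed at only 1 of them, so the copies of 31 bp words at the centre of each peak were counted in the genome. The centre occurred more than once for 7 WT peaks (4.90%) and 6 KO peaks (4.51%) of RP genes, such as those at Rps12 (6 copies), Rps29, Rpl36 and Rps27a. Over all peaks it did so for 8.07% and 10.9%, and at all protein-coding starts for 1.98% and 2.12%. Just after the start, words with more than 1 copy made up a mean of 8.97% at subunit genes and 58.7% at pseudogenes, and just before it 3.11% and 17.2%. Without such peaks, 75 and 77 RP genes still had a peak in WT and Uhrf1 KO.

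The other genes of the ribosome and of translation were counted in the same way. Of the RP genes named otherwise, Fau, which encodes a fusion of Rps30 with a ubiquitin-like protein, had 3 WT and 0 KO peaks, and Gnb2l1, the small-subunit scaffold also called Rack1, had 5 and 4. All 15 translation factors and other classic TOP genes, such as Eef1a1 (4 and 3), Eef2 (4 and 2) and Pabpc1 (4 and 3), had peaks in both lists, with 46 WT and 34 KO peaks (0.739, 0.460 to 1.18). Of 23 ribosome biogenesis genes, 23 had a WT and 22 a KO peak, with 48 and 38 peaks (0.792, 0.503 to 1.24), and Polr1a, the largest subunit of RNA polymerase I, had 2 WT and 0 KO peaks. Of the 77 mitochondrial RP genes, 72 had a WT peak (93.5%, 85.5 to 97.9) and 66 a KO peak (85.7%, 75.9 to 92.6). Their 154 WT and 120 KO peaks gave a ratio of 0.779 (0.609 to 0.996), and 24.7% (18.1 to 32.3) of WT and 5.83% (2.38 to 11.6) of KO peaks had no partner. The ratio intervals of cytosolic and mitochondrial RP genes overlap.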

How the data were processed

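The authors mapped ATAC-seq reads to mm9 with Bowtie2 in local mode, kept 1 alignment for each read and used short fragments. Per the submitters' processing notes, Bowtie2 2.1.0 and HOMER 4.9.1 were used. The peak caller and threshold are not given in the sources used here. The deposited files hold peak positions and a deposited score of 1 for every peak, which carries no information.

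Peaks were 101 bp wide except 1. A peak was assigned to a gene when its middle lay within 2 kb of a GENCODE vM1 transcript start, and the representative start was that of the protein-coding transcript numbered 001, or else the most upstream one. Peaks had a partner at a gap of at most 100 bp. GC was taken over 1 kb around the start, and gene sets with at least 60% were called rich in GC. Scripts ran in Python 3.11.15 with numpy 2.4.6, scipy 1.17.1, numba 0.67.0 and matplotlib 3.10.9, and the placement routine was tested on simulated data. Since peak heights were not given, the number in each peak's name, ordered within the chromosome, served as its rank. Sequences were read from NCBIM37. RefSeq promoter tables, on another build, were not used here.

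Members and gene lists were chosen with earlier results of these data known. Named were all members with a peak in 1 list or none, the 5 with most peaks in each list, the 5 with the largest excess in either direction, members on chromosome 8, textbook examples and the paralogs with their parents. With 1 library per genotype no test was made. Alternatives are given in the closing section. Some genes that this rule names are not reported here by name and are left out of the plot of positions, but stay in all counts.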

Additional observations from a re-analysis of the deposited data

How the results depend on the processing

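No paired analysis was possible because with 1 library for each genotype no result comes from a test. Of 82 recomputed values, 74 stayed within 1.5 times (counts) or within the counting interval (shares, ratio and distances), 8 moved and 0 reversed. Some of the 74 could not move. Using the representative start alone cannot change the distances, and cutting the WT list cannot change the number of KO peaks. The upper limits for genes with a peak, 112 (WT) and 116 (KO), exceed the 86 genes. With only the lower 50% of name numbers kept, KO peaks at RP genes fell to 82, the share of WT peaks without a KO partner was 23.7%, and pseudogenes with a peak numbered 3 (WT) and 0 (KO). RP genes with a peak then numbered 63 in WT and 54 in Uhrf1 KO, instead of 75 and 77. These counts stayed within 1.5 times, but the order of the libraries changed. Of all protein-coding genes, 53.6% (WT) and 45.9% (KO) had a peak in that setting. Requiring partners to share at least 50% of both regions gave 36.4% (WT) and 33.1% (KO) without a partner. At 1 kb, 3 pseudogenes had a peak in each list. The ratio of KO to WT at RP genes stayed between 0.845 and 0.985. The settings with subunit genes alone or without neighbouring starts were chosen after seeing the data. The number of reads behind a peak is unknown, which limits every statement on single peaks.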
